A study of Mus musculus with 12 samples.

Results

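The HOX cluster genes of the mouse were followed in GFRa1+/KIT- spermatogonia from control and cryptorchid testes. They were taken as every gene of the expression table whose symbol is Hoxa, Hoxb, Hoxc or Hoxd followed by a number, which gave 39 of 21859 genes. HOX genes encode homeodomain transcription factors that give cells their position along the body axis. They lie in 4 clusters, and their order along the chromosome follows the order in which they are switched on along the axis, from paralog group 1 at the anterior end to group 13 at the posterior end. Outside their domains the clusters are kept off by Polycomb proteins, which modify histones over the whole cluster, and Trithorax proteins with MLL (*Kmt2a*) hold active HOX genes on. In male germ cells their promoters are known for carrying repressive and activating histone marks at the same time.

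RNA was measured in 12 libraries, 5 from control and 7 from cryptorchid testes. Cells came from male GFRa1-EGFP mice, in which EGFP reports the GDNF receptor gene *Gfra1*, and were sorted as EGFP+ without the differentiation marker KIT. At 8 to 10 weeks of age the left testis was attached to the abdominal wall (labelled Cryptorchid), the right testis stayed in the scrotum as the control (labelled WT), and tissue was taken 10 days later. Tubules were digested for 9 min at 32°C for control and at 37°C for cryptorchid testes, so digestion temperature and condition cannot be told apart. RNA of about 200 cells went into each Smart-seq2 library, a method that amplifies full-length cDNA by PCR without molecular identifiers. Nothing states which libraries share a mouse, so *P*-values measure the spread between these libraries. In such bulk samples fewer expressing cells and less RNA per cell cannot be told apart.

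Levels are log2 RPM, reads scaled to the size of the library on a log2 scale, and values at or below -1.92 log2 RPM were set to that common floor, the highest of the 12 library minima. Control libraries had 4511730 to 24345368 reads on genes, and cryptorchid libraries 3306771 to 20027902. In read numbers, this floor was 1.19 to 7.58 for the control and 0.90 to 5.88 for the cryptorchid libraries. Replicates 1 to 3 of both groups differed technically from replicates 4 and above. Of genes with 1 to 20 reads, 53.2% to 60.8% had an even read number in replicates 1 to 3, against 48.2% to 50.5% in replicates 4 and above. *Gfra1* was at 6.80 to 9.59 log2 RPM and *Zbtb16*, which encodes the spermatogonial factor PLZF, at 7.42 to 9.07 over the 12 libraries, and *Kit* was read at 3.67 to 5.74 log2 RPM. Marker genes of 12 cell types were read in all groups. Spermatid markers summed to 475 to 2618 RPM in control and 13.5 to 1771 RPM in cryptorchid libraries. Of 6 tested, the protamine genes *Prm1* and *Prm2* were called lower. The 7 somatic lists together summed to 137 to 385 RPM in control and 163 to 392 RPM in cryptorchid libraries. *Pdgfra* (1 of 4 stromal markers tested), *Mrc1* (1 of 5 macrophage) and *Cdh5* (1 of 4 endothelial) were called higher. No Sertoli, Leydig, myoid or lymphocyte marker was called. *Stra8*, 1 of 4 markers of differentiating spermatogonia, was also called higher. These calls are at 2-fold and an unadjusted limma *P*-value of 0.05, which 3.18% of all genes met as higher and 2.45% as lower. No list had a marker without reads in every library.

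The Hoxa cluster lies on chr6:52155590-52260880 (minus strand, 11 genes), the Hoxb cluster on chr11:96194316-96368256 (plus strand, 10 genes), the Hoxc cluster on chr15:102921103-103036852 (plus strand, 9 genes) and the Hoxd cluster on chr2:74668310-74765142 (plus strand, 9 genes), in GRCm38. Promoter sequences of RefSeq (GRCm38.p6) were matched for 22 of the 39 genes, in 24 windows of the 250 bases before a start site. Those of the Hoxd cluster are shown for its 3 well-read genes and for *Hoxd10* and *Hoxd13*, which had no read in any library, with each CG pair in capitals. The *Hoxd3* sequence stops before the first annotated exon base. The *Hoxd4* sequence lies before a start inside the gene, which has an earlier start beside that of *Hoxd3*.
Hoxd3 (chr2:74711743-74711926, plus strand): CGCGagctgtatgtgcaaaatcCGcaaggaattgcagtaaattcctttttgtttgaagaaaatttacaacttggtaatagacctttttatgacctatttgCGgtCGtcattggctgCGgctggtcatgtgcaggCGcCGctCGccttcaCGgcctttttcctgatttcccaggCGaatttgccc
Hoxd4 (chr2:74721728-74721977, plus strand): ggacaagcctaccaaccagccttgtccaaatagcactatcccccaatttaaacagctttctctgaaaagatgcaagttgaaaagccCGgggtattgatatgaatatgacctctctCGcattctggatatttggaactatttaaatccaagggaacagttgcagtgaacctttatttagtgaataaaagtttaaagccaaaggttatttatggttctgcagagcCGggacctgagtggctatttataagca
Hoxd8 (chr2:74704365-74704614, plus strand): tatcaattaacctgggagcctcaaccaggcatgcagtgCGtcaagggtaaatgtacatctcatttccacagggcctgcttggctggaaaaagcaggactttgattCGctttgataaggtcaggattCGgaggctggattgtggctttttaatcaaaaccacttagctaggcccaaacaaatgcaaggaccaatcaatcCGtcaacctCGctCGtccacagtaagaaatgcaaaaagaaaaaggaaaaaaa
Hoxd10 (chr2:74691641-74691890, plus strand): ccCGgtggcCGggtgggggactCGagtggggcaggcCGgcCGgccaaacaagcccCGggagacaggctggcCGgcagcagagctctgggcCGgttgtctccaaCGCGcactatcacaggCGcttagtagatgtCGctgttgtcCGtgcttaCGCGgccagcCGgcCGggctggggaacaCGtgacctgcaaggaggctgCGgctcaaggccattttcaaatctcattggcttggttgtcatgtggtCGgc
Hoxd13 (chr2:74667975-74668224, plus strand): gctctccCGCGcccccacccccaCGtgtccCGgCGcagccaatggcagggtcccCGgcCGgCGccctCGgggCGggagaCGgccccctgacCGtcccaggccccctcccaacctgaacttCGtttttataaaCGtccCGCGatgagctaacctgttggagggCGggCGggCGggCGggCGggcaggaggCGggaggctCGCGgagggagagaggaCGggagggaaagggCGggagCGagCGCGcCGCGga

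The read *Hoxd4* and *Hoxd8* sequences held 3 and 6 CG pairs and the full *Hoxd3* window 12, whereas those of the unread *Hoxd10* and *Hoxd13* held 20 and 31. *Hoxd9*, the third gene without a read, had 13. Among the Hoxd genes with few reads, *Hoxd1* had 24, *Hoxd12* had 10, and *Hoxd11* had 2 and 20 in its separate windows, so CG content did not follow the reads throughout the cluster. The HOX windows had a median of 12.5 CG pairs (range 2 to 35), and the 32536 distinct windows of all genes a median of 6. At least 20 CG pairs stood in 33.3% of the HOX windows and in 18.1% of all windows. The TATA box letters TATAAA, read on both strands, were in 4 of the 24 HOX windows (16.7%) and in 12.3% of all windows, and among the sequences shown in *Hoxd4* and *Hoxd13*. The SP1 letters GGGCGG were in 41.7% of HOX windows and 33.0% of all, and TGATNNAT, the form bound by HOX and PBX proteins together, in 16.7% and 7.66%. GGGCGG holds a CG pair, so the counts of GGGCGG and of CG pairs are not separate. These letter matches describe the windows and are no evidence of binding.

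HOX RNA was scarce in both groups, and it was unevenly spread over the clusters. *Hoxa3*, *Hoxd3* and *Hoxd4* were above the common floor in all 12 libraries. At the other end, *Hoxd9*, *Hoxd10* and *Hoxd13* had no read in any library, which allows at most 0.104 to 0.665 RPM per control library and 0.135 to 0.879 RPM per cryptorchid library at 3 reads (counting error only). Another 5 genes, *Hoxa2*, *Hoxb5*, *Hoxb6*, *Hoxb8* and *Hoxc11*, had reads but never rose above the floor. With a log2 mean RPM above -1 as the limit, 16 of the 39 genes were tested and 23 were not. Of the 16, 13 met this limit in each group, *Hoxb4* and *Hoxc8* only in control and *Hoxc13* only in cryptorchid libraries, so that the limit itself favoured the direction of their differences.

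**Figure D1:**
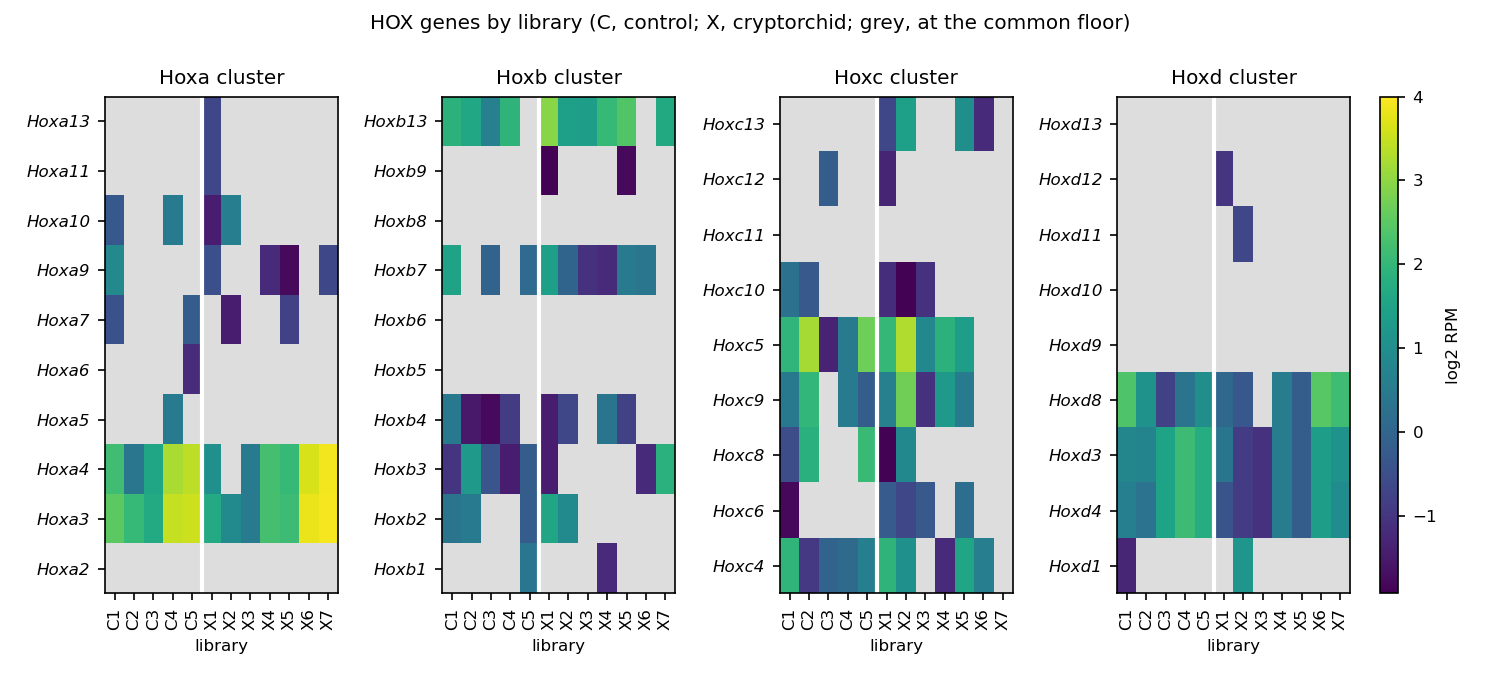
Level of 38 HOX genes (rows, in chromosomal order from the group 13 end) in the 5 control (C) and 7 cryptorchid (X) libraries. Colour gives log2 RPM, and grey marks values at the common floor of -1.92. *Hoxa3*, *Hoxa4*, *Hoxd3*, *Hoxd4* and *Hoxd8* form filled rows. In paralog groups 9 to 13, the rows other than *Hoxb13* and *Hoxc9* are mostly grey.

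The anterior paralog groups were above the floor most often. Genes of groups 1 to 4 were above the floor in 59.7% of gene and library pairs, those of groups 5 to 8 in 34.8% and those of groups 9 to 13 in 23.4%. In control libraries these shares were 68.3%, 38.2% and 17.5%, and in cryptorchid libraries 53.6%, 32.5% and 27.7%. Per cluster, 33.3% of the pairs were above the floor for Hoxa, 36.7% for Hoxb, 46.3% for Hoxc and 36.1% for Hoxd. Neighbouring genes that overlap share reads, so they are not independent in these shares. The shares also take no account of gene length, though reads in introns count. *Hoxa3* and *Hoxd3* span 44275 and 36516 bases, and no gene of groups 9 to 13 spans more than 9658 (*Hoxa10*). The part of length in these shares was not tested.

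The number of detected HOX genes overlapped between the groups. It was 21, 15, 12, 13 and 15 in the control libraries and 8 to 25 in the cryptorchid libraries, with a median of 13. Within replicates 1 to 3 the cryptorchid counts were 25, 20 and 10, and within replicates 4 and above they were 13, 16, 9 and 8. The highest count belonged to cryptorchid replicate 1, the most deeply read cryptorchid library, and the lowest to cryptorchid replicate 7. With 1 read or more as the limit, the medians were 19 in control and 15 in cryptorchid libraries. This limit depends on depth, and the median reads on genes were 7603202 in control and 4611830 in cryptorchid libraries. Over all genes, the median numbers with reads were 16602 and 16364.

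**Figure D2:**
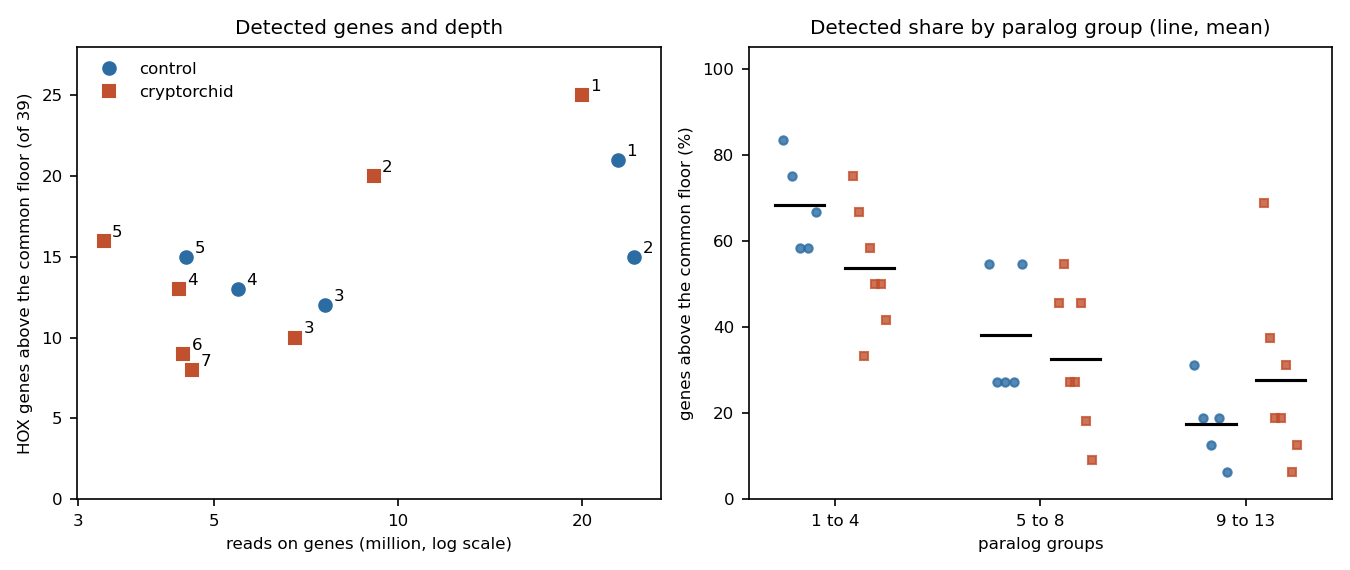
Left, HOX genes above the common floor (of 39) against reads on genes (log scale), with replicate numbers beside the points. Right, percent of the genes of paralog groups 1 to 4, 5 to 8 and 9 to 13 above the floor in each library, with lines at the group means. Counts run from 8 to 25 in cryptorchid libraries, and the mean shares fall from groups 1 to 4 to groups 9 to 13 in both conditions.

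Of the 6 genes above the floor in cryptorchid libraries only, 5 were so in cryptorchid replicate 1. Of all genes in the table, 81.0% were above the floor in cryptorchid replicate 1, against 71.8% to 75.6% in control libraries. The share of all genes above the floor in 1 group only was not counted. As there were 7 cryptorchid and 5 control libraries, these counts are no evidence of a HOX difference. *Hoxa11* and *Hoxa13* had 14 reads each and *Hoxd12* 11 reads in that library and none elsewhere. *Hoxa5* and *Hoxa6* were above the floor in control libraries only, each in 1 library. Of the 36 genes with reads, 12 had over 50% of their summed RPM in 1 library. The whole Hoxc cluster was without a read in cryptorchid replicate 7, while its reads, each counted once, made 1.78 to 14.5 RPM in the other cryptorchid libraries and 2.45 to 9.70 RPM in control libraries. In the same library *Hoxa3* was at 3.93 log2 RPM, its highest value. Summed over the 4 clusters, HOX reads counted once made 13.3 to 37.1 RPM in control and 7.73 to 32.6 RPM in cryptorchid libraries. The means were 26.6 ± 8.72 (SD, n = 5) and 24.3 ± 8.90 (SD, n = 7). The sums leave out any *Hoxc10* reads that lie outside *Hoxc5*.

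Several HOX genes span one another, and the deposited reads were shared between them. Among pairs of genes in the table of which 1 lies inside the other without common exon bases, the outer gene had at least the reads of the inner one in all 12 libraries for 281 of 281 pairs on opposite strands and 145 of 146 on the same strand. Reads in introns and on either strand were thus part of a gene's value. *Hoxd3* and *Hoxd4* start next to each other, and 200 of the 229 *Hoxd3* reads could be those of *Hoxd4*, with equal numbers in 8 of 12 libraries. *Hoxa4* lies inside the extent of *Hoxa3* and had 500 reads against 682 for *Hoxa3*. *Hoxc5* covers most of the Hoxc cluster, and *Hoxc6*, *Hoxc8*, *Hoxc9* and *Hoxc10* together held 572 reads against 642 for *Hoxc5*. Of the 39 genes, 14 have an annotated gene on the opposite strand within their extent, such as *Hoxd3os1* for *Hoxd3* and *Hoxaas3* for *Hoxa3* and *Hoxa4*.

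**Figure D3:**
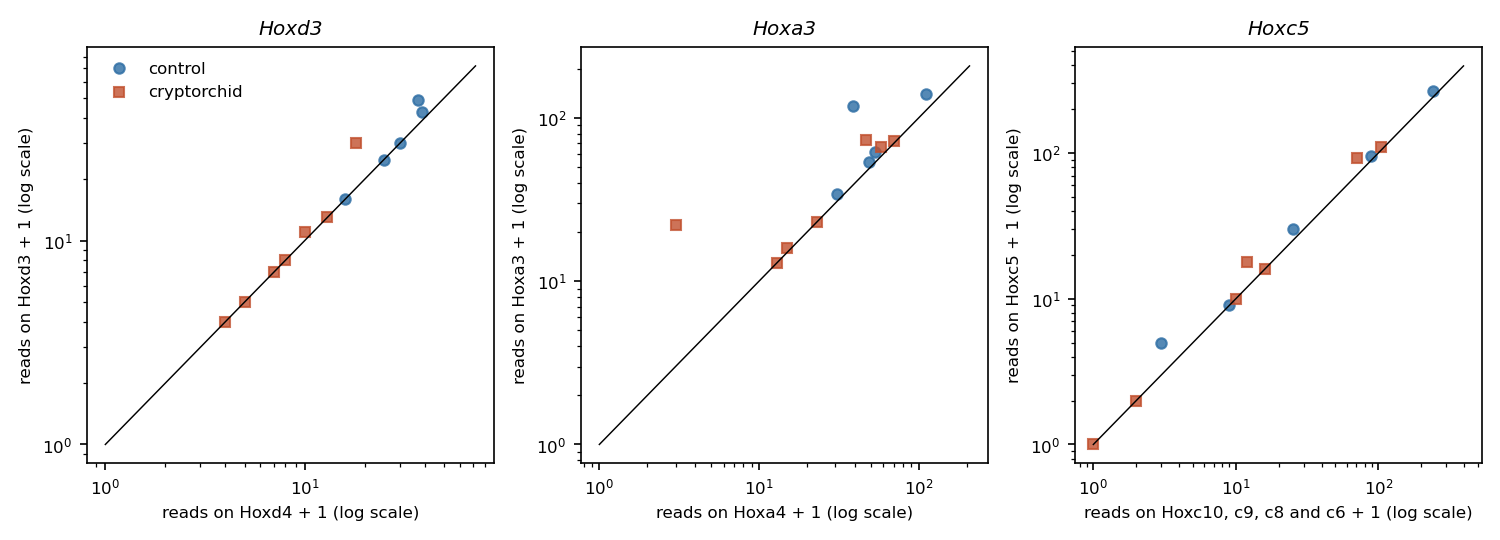
Reads of *Hoxd3*, *Hoxa3* and *Hoxc5* (y axes) in each library, plus 1 and on log scales. The x axes give reads of *Hoxd4*, of *Hoxa4*, and of *Hoxc6*, *Hoxc8*, *Hoxc9* and *Hoxc10* together. Points on the line have equal numbers, as 8 of 12 do for *Hoxd3*, and no point lies below it.

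Per kb of gene extent, the highest mean level over the 12 libraries was that of *Hoxa4*, at 2.75 RPM per kb. *Hoxb13* followed at 1.02 and *Hoxd8* at 0.638 RPM per kb, and the ranges of these 3 genes over the libraries overlapped. *Hoxa3* was at 0.153, *Hoxd4* at 0.107 and *Hoxd3* at 0.0534 RPM per kb, their extents being long.

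Control and cryptorchid libraries were then compared to ask whether HOX RNA changes when the testis is kept at body temperature. By limma, 0 of the 16 tested HOX genes were called higher and 0 lower at 2-fold and an unadjusted *P*-value of 0.05. Of all 16932 genes tested, 3.18% were called higher and 2.45% lower. At an unadjusted limma *P*-value of 0.05 alone there were also 0 HOX genes, against 1551 of all 16932 genes. Voom on the recovered reads called 0 HOX genes and had 0 under that *P*-value, while it called 785 genes higher and 497 lower. The smallest adjusted *P*-value of a HOX gene was 0.607, and 0.0118% of all genes passed an adjusted *P*-value of 0.05. In 0 of the 16 genes were the groups without overlap, against 0.839% of all genes. The 16 standard errors were 0.65 to 0.99 on the log2 scale in this unpaired fit, so a 2-fold difference was less than 2 standard errors. A fit with the replicate number as a block called 5 of the 16 and 914 of all 16932 genes lower. Cryptorchid replicates 6 and 7, without a control of that number, add nothing to that fit, and no source ties the numbers to mice.

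The differences, cryptorchid minus control, had a median of -0.40 over the 16 genes and of 0.09 over all genes tested. With no filter on low values the median over all 39 genes was -0.07. Of the 16, 13 (81.2%) had a lower mean in cryptorchid libraries, as did 44.0% of all genes. The 16 are not independent, since *Hoxd3* with *Hoxd4*, *Hoxa3* with *Hoxa4* and *Hoxc5* with *Hoxc8* and *Hoxc9* share reads. Within the sets of replicates, 5 of the 15 genes plotted by library were lower in both, 3 were higher in both and 7 had opposite signs. The median was -0.69 (without control replicate 3) to -0.11 (without control replicate 1) when each library was left out in turn. As 3 of the 16 passed the limit through 1 group only, these counts and medians describe the tested genes and are no evidence of a shift of HOX genes.

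**Figure D4:**
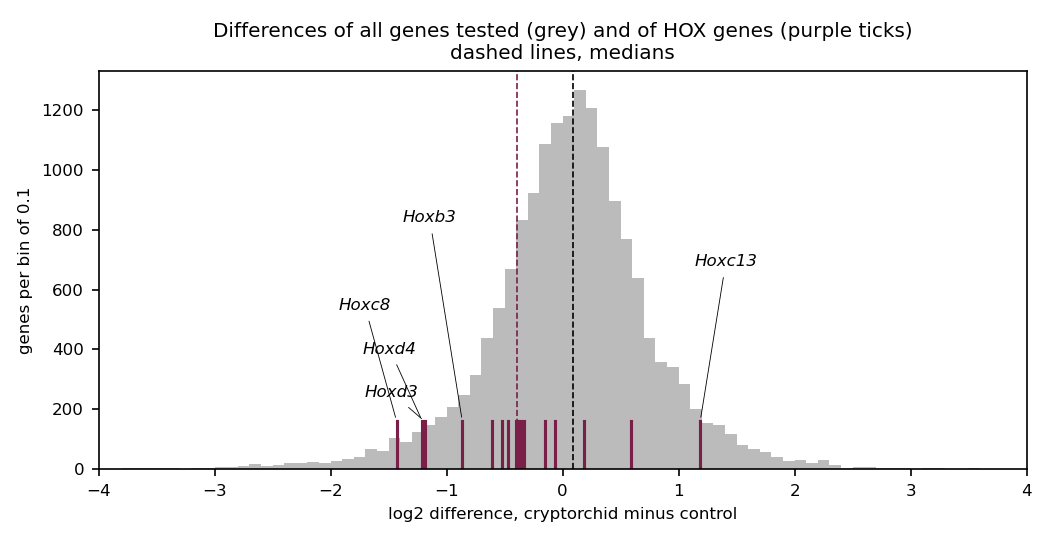
Distribution of the log2 difference (cryptorchid minus control) of the 16932 genes tested in bins of 0.1 (grey) and the values of the 16 HOX genes (purple ticks, the 5 with the smallest limma *P*-values named). Dashed lines are the medians, 0.09 for all genes and -0.40 for the HOX genes.

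*Hoxd3* and *Hoxd4*, group 3 and 4 genes that pattern hindbrain and neck, were the HOX genes with the smallest *P*-values. *Hoxd3* was at 0.79, 0.74, 1.51, 2.13 and 1.73 log2 RPM in the control libraries. In the cryptorchid libraries it lay between -1.07 and 1.40, with a median of 0.38. The groups overlapped, with all control values above the cryptorchid median and 2 cryptorchid values, those of replicates 6 and 7, above the lowest control value. The difference was -1.19 (SE 0.65, limma *P* = 0.0818, adjusted *P* = 0.607), and the exact two-sided rank sum test gave *P* = 0.0303 for 5 against 7 libraries.

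*Hoxd4* was at 0.64, 0.32, 1.51, 2.13 and 1.73 log2 RPM in the control libraries and at -1.07 to 1.40, with a median of -0.19, in the cryptorchid libraries. Its difference was -1.21 (SE 0.66, limma *P* = 0.0827, adjusted *P* = 0.608), with an exact *P* = 0.0480. As the pair shares most of its reads, it stands for 1 measurement rather than 2. Outside *Hoxd4*, *Hoxd3* had 16 reads in the control and 13 in the cryptorchid libraries. By reads, *Hoxd3* had 15 to 48 per control library and 3 to 29 per cryptorchid library.

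Within replicates 1 to 3 the *Hoxd3* difference was -1.54 and within replicates 4 and above -1.20, and in each set the groups did not overlap for either gene, as was the case, with 1 direction in both sets, for 2.37% of all genes tested. The exact rank sum test that keeps the sets apart gave *P* = 0.00667 for both genes, the smallest it can give over its 300 splits, while each set alone cannot go below 0.10. The exact *P*-value of the unstratified test was above 0.05 without any 1 of control replicates 3, 4 and 5 and cryptorchid replicates 1 to 5, for both genes, and reached 0.0727 for *Hoxd3* and 0.109 for *Hoxd4*. A term for the sets raised the number of genes called lower from 415 to 642 of 16932. With it limma called both genes lower at the unadjusted level, at -1.38 for *Hoxd3* and -1.44 for *Hoxd4*. The spermatid markers, which were lower in cryptorchid libraries, moved in the same direction, and their part in this difference was not tested.

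*Hoxd8*, the other well-read gene of the cluster, was at 2.37, 1.11, -0.77, 0.35 and 0.995 log2 RPM in control libraries and -1.92 to 2.46 (median 0.04) in cryptorchid libraries. The difference was -0.40 (SE 0.80, exact *P* = 0.639), and it was -1.63 within replicates 1 to 3 and 0.59 within replicates 4 and above. Its groups overlapped over nearly their whole range.

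*Hoxa4* and *Hoxa3*, which specify cervical vertebrae and pharyngeal organs, were the most highly read HOX genes and did not pass the test. *Hoxa4* was at 2.18, 0.40, 1.56, 3.24 and 3.41 log2 RPM in control libraries and at -1.92 to 3.89 (median 2.04) in cryptorchid libraries, a difference of -0.52 (SE 0.90, exact *P* = 1). *Hoxa3* was at 2.51, 2.04, 1.69, 3.47 and 3.55 in control and 0.51 to 3.93 (median 2.14) in cryptorchid libraries, a difference of -0.47 (SE 0.67, exact *P* = 0.639). For *Hoxa3* the groups only just did not overlap within replicates 1 to 3, where the difference was -1.04. The nearest values were 1.693 log2 RPM in control replicate 3 and 1.691 in cryptorchid replicate 1. Within replicates 4 and above the groups overlapped, and the difference was -0.48. In both groups replicates 4 and above held the highest *Hoxa3* values.

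**Figure D5:**
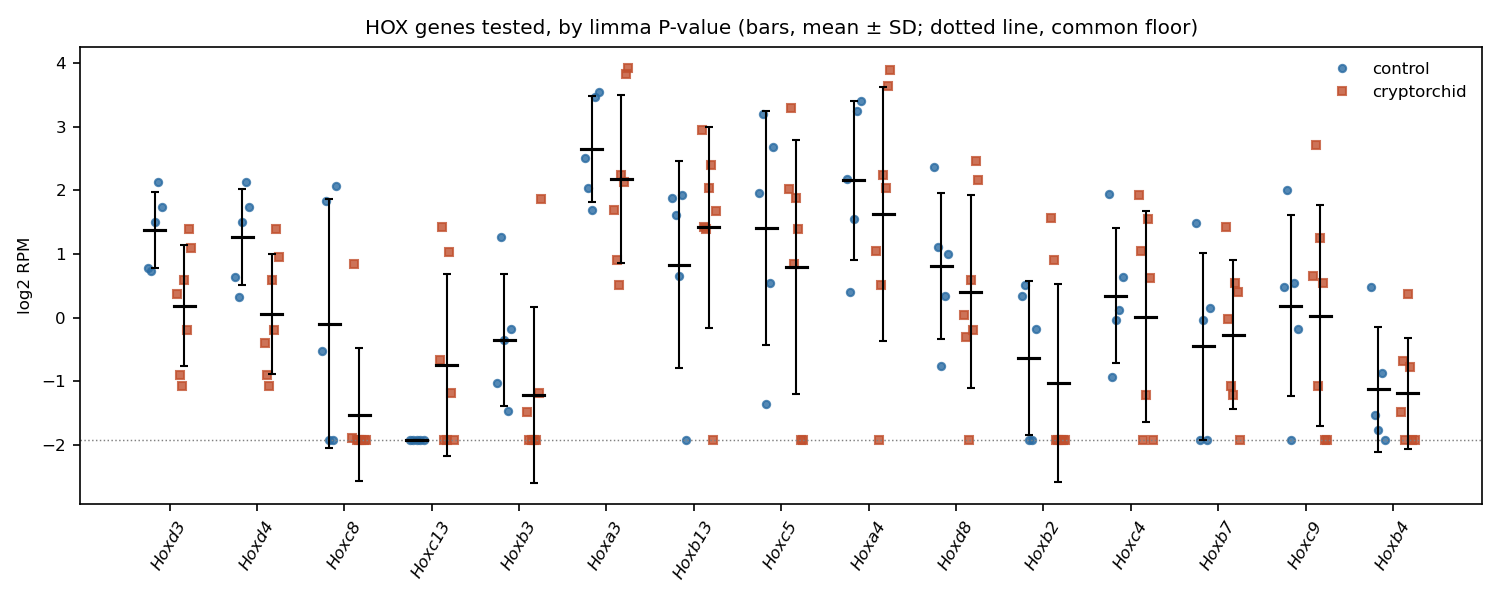
Log2 RPM of 15 tested HOX genes in each control (circles) and cryptorchid (squares) library, in order of limma *P*-value, with bars for mean and SD and a dotted line at the common floor of -1.92. The groups overlap in all 15 genes, and *Hoxd3* and *Hoxd4*, at the left, have the smallest *P*-values.

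In the Hoxb cluster, *Hoxb3* was above the floor in all 5 control libraries, at -1.02, 1.26, -0.35, -1.46 and -0.17 log2 RPM. In the cryptorchid libraries it lay at the floor in 4 of 7 and reached 1.86 in replicate 7. The difference was -0.87 (SE 0.77, limma *P* = 0.275, exact *P* = 0.0619). It was -1.74 within replicates 1 to 3 and 0.0241 within replicates 4 and above. Without cryptorchid replicate 7 it was -1.38, given without a *P*-value because that library was singled out for its high value. *Hoxb13*, a posterior gene used in prostate and tail, was at 1.89, 1.61, 0.65, 1.93 and -1.92 log2 RPM in control libraries and -1.92 to 2.96 (median 1.68) in cryptorchid libraries. Its difference of 0.59 (SE 0.87, exact *P* = 0.460) became -0.10 without control replicate 5 and 1.15 without cryptorchid replicate 6, the libraries with 1 read each. *Hoxb2*, *Hoxb4* and *Hoxb7* differed by -0.39, -0.07 and 0.19, each less than its standard error.

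In the Hoxc cluster, *Hoxc13*, known for its part in hair and nail growth, had 0, 0, 2, 0 and 1 reads in the control libraries. It was above the floor in 4 of 7 cryptorchid libraries, with 14, 30, 7 and 2 reads, and had none in the other 3. Over pooled reads its level was 0.896 RPM in cryptorchid against 0.0409 RPM in control libraries, a ratio of 21.9. Averaged per library, its level was 0.829 RPM in cryptorchid and 0.0835 RPM in control libraries, a smaller contrast. Pooling weights libraries by depth, and control replicates 1 and 2, the most deeply read, had no *Hoxc13* read. Pooled reads do not show the spread between libraries, so the pooled ratio is no test. The ratio was 11.7 without cryptorchid replicate 2, which held 30 of the 53 reads, and between 13.3 and 56.6 without any 1 control library, the highest without control replicate 3, which held 2 of the 3 control reads. On floored values the difference was 1.19, and it is given without a test because the gene passed the limit through the cryptorchid libraries alone.

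*Hoxc8*, a thoracic patterning gene, was at -0.52, 1.83, -1.92, -1.92 and 2.07 log2 RPM in control libraries, and in cryptorchid libraries only replicate 2 (0.84) and replicate 1 (-1.89) were above the floor. The difference was -1.43, and -1.83 without cryptorchid replicate 2, with values at the floor in both groups. It is given without a test because the gene passed the limit through the control libraries alone. The extent of *Hoxc5* holds *Hoxc6*, *Hoxc8*, *Hoxc9* and 87.3% of *Hoxc10*, so it shares reads with them. *Hoxc5* was at 1.96, 3.20, -1.35, 0.54 and 2.68 in control libraries and -1.92 to 3.29 (median 1.40) in cryptorchid libraries. Its difference of -0.61 (SE 0.99, exact *P* = 0.602) was 0.78 within replicates 1 to 3 and -1.76 within replicates 4 and above. *Hoxc4* and *Hoxc9* had differences of -0.34 and -0.15, both below their standard errors.

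HOX proteins bind DNA together with PBX and MEIS or PREP (*Pknox*) proteins, and these partner genes were nearly all read well enough to be tested. Of 9 cofactor genes, 8 were tested, and limma called 0 higher and 0 lower, beside 3.18% and 2.45% of all genes tested. At an unadjusted *P*-value of 0.05 alone there were 0 cofactors, against 1551 of all 16932 genes. The differences had a median of 0.19 and ranged from -0.76 to 0.67. *Meis3* was not tested. Under voom no cofactor was called either.

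Of 46 genes known to regulate the clusters (Polycomb and Trithorax subunits, H3K27 demethylases, CDX factors, retinoic acid receptors and enzymes, *Gdf11* and *Ctcf*), 43 were tested. Limma called 1 higher and 3 lower, beside 3.18% and 2.45% of all genes tested, and 0 passed an adjusted *P*-value of 0.05. *Cbx2*, a Polycomb subunit that reads the repressive mark, fell from 5.97 ± 0.49 to 4.95 ± 0.53 log2 RPM (difference -1.02, SE 0.32, adjusted *P* = 0.289). *Cbx6*, a related subunit, rose by 1.48 (SE 0.67, adjusted *P* = 0.512), from 1.67 ± 1.55 to 3.15 ± 0.80 log2 RPM. *Cyp26a1*, which breaks down retinoic acid, and *Rarg*, a retinoic acid receptor, fell by 1.65 (SE 0.64, adjusted *P* = 0.425) and 1.06 (SE 0.44, adjusted *P* = 0.455). These calls stand at the unadjusted *P*-value only, and each was lost when certain libraries were left out. *Cbx2* was under 2-fold (-0.83 to -0.99) without control replicate 1 or cryptorchid replicates 2, 3, 5 or 7, and *Cbx6* was not called (0.93 to 1.55) without control replicates 2, 3 or 4 or cryptorchid replicates 3, 4, 5 or 7. *Rarg* was not called (-0.86 to -0.96) without control replicates 1 or 2 or cryptorchid replicate 3, nor was *Cyp26a1* without control replicate 4 (-1.46) or 5 (-1.31). The most highly read regulator, *Rbbp7*, a histone-binding subunit, had a difference of -0.33 (SE 0.40). The list as a whole had a median difference of 0.19, and *Cdx2*, *Cdx4* and *Cyp26b1* were too low to be tested.

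The nearest protein-coding genes on either side of the clusters, with *Evx1* and *Evx2* 16 in all, were also compared. *Evx1* and *Evx2*, homeobox genes at the group 13 ends of the Hoxa and Hoxd clusters, had at most 3 reads in any library and were not tested. Beside 3.18% and 2.45% of all genes tested, 1 of the 14 tested neighbours was called higher and 0 lower. This was *Skap2*, an adaptor gene whose near end lies 143041 bases from the Hoxa cluster, at 5.63 ± 0.52 log2 RPM in control and 6.74 ± 0.40 in cryptorchid libraries (difference 1.11, SE 0.28, adjusted *P* = 0.197, exact *P* = 0.00505, n = 5 and 7). It was just under 2-fold without control replicate 4 (0.97) or cryptorchid replicate 1 (0.996), and within replicates 1 to 3 alone it was 0.80. The most highly read neighbour, *Mtx2* beside the Hoxd cluster, had a difference of 0.16 (SE 0.36). The neighbours' median difference was 0.31, and the tested HOX genes' was -0.40.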

How the data were processed

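Total RNA of about 200 sorted cells per library was sequenced in 5 control and 7 cryptorchid libraries. Per the labels, the authors used Trim Galore 0.6.6, FastQC 0.11.8 and HISAT2 2.1.0 with mm10. Counting was done in SeqMonk over an annotation of protein-coding genes, and the values deposited are log2 RPM, 1 column per library with 0 columns left unused. Their counting strand is not stated. Their own comparison used counts, which were not used here.

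From these log2 values whole reads were recovered for all values under 1000 reads (100% within 0.01), with the lowest value of a library standing for 0.9 reads. Depth is given by these reads, and floors and the limits at 3 reads cover counting error only. Values were set to the common floor, and limma 3.58.1 in R 4.3.3 (lmFit, eBayes with trend, unpaired) was run over genes whose mean RPM, on the log2 scale, exceeded -1. Calls needed 2-fold and an unadjusted *P*-value of 0.05. *P*-values were also adjusted by Benjamini-Hochberg over all genes tested. Single HOX genes were tested by exact two-sided rank sum over 792 splits, with midranks for ties, in Python 3.11.15 with scipy 1.17.1. The limma step was tested on simulated data. Gene extents are those of GENCODE M21.

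HOX genes given with values were the 8 with the smallest limma *P*-values, the 6 with the highest mean RPM, and *Hoxb13* and *Hoxc13*. *Hoxb2*, *Hoxb4*, *Hoxb7*, *Hoxc4* and *Hoxc9* are given by their differences, and further HOX genes are named for their read numbers, chosen after the values were seen. Of the other lists, called genes and the most highly read one were named. The values of 1 tested HOX gene and of the most highly read cofactor are not reported here, though both are in the counts and medians. The members, the 9 cofactors, 46 regulators, 16 neighbours and 12 marker lists were chosen with earlier results of these data known. The marker lists covered undifferentiated and differentiating spermatogonia, germ cells, spermatocytes, spermatids, Sertoli, Leydig, peritubular myoid, stromal, endothelial and immune cells. Alternatives were no floor, log2(RPM + 1), log2(RPM + 0.1), no filter, a filter at 2, median centring, quantile normalization, voom on recovered reads, array weights, the replicate number as a block, the replicate sets as a term or alone, and leaving out each library.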

Additional observations from a re-analysis of the deposited data

Results flagged for a closer look

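In groups of 5 control and 7 cryptorchid libraries, 3 values of HOX genes lay farther from the rest of their group than Dixon's test allows, among 23 groups tested. Chance gives about 1 in 20 where values vary freely. This rate does not hold for *Hoxc8* and *Hoxb3*, which had 5 and 4 of 7 cryptorchid values tied at the common floor, so that the floor largely set the gap. *Hoxc8* in cryptorchid replicate 2 was at 0.84 log2 RPM, with the next highest cryptorchid value at -1.89. *Hoxb3* in cryptorchid replicate 7 was at 1.86 log2 RPM, and the next highest at -1.19. *Hoxb13* in cryptorchid replicate 6 lay at the common floor of -1.92 log2 RPM, and the next lowest at 1.39. Without these libraries the differences were -1.83 for *Hoxc8*, -1.38 for *Hoxb3* and 1.15 for *Hoxb13*. The libraries were singled out for their values, so no *P*-value is given.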

How the results depend on the processing

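Of the results that answer a comparison, 169 values under an alternative stayed close to the first value and 28 moved. No HOX gene was called higher except 1 with no common floor (*Hoxc13*). HOX genes called lower went from 0 to 2 with no filter and 2 with the term for the replicate sets (*Hoxd3* and *Hoxd4* in both), to 1 with quantile normalization (*Hoxd3*) and 1 with array weights (*Hoxc8*), and to 0 to 2 with each library left out. In those, *Hoxc8* was called without control replicate 3, control replicate 4 or cryptorchid replicate 2, *Hoxd3* and *Hoxd4* without cryptorchid replicate 6, and *Hoxb3* without cryptorchid replicate 7. The cause was not tested. *Hoxc8* and *Hoxc13* passed the filter through 1 group only, so their calls are no evidence of a difference. Nor is the *Hoxb3* call, since cryptorchid replicate 7 was singled out for its high value. The voom fit called 0.

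The replicate block called 5 HOX genes lower (*Hoxd3*, *Hoxd4*, *Hoxa3*, *Hoxa4* and *Hoxb3*), gave *Hoxc5* a difference of 0.48 and called 753 of all genes higher and 914 lower. Cryptorchid replicates 6 and 7 have no control of the same number, so they added nothing to these differences. They held the highest cryptorchid values of these 5 genes, such as 3.84 and 3.93 log2 RPM for *Hoxa3*. Both were at the common floor for *Hoxc5*. Same-numbered libraries deviated together with correlations of 0.44, 0.43, 0.47, 0.26 and 0.04, and 4 of 5 control libraries matched their own number best, a hint of pairing in the data. The deviations were taken from group means only, so they also hold the technical difference between the replicate sets and differences in depth. Pairing was not tested apart from these. The fifth correlation is near 0 and no source ties the numbers to mice, so the unpaired fit was kept. With the block the HOX median difference was -0.08.

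All genes called numbered 538 higher and 415 lower, and 451 and 545 with quantile normalization, which shifts the balance of the directions. With array weights they were 844 and 729, with the set term 642 lower, in replicates 1 to 3 alone 290 higher, and in replicates 4 and above alone 657 lower. Without each library they were 470 to 690 higher and 302 to 603 lower. Regulators called went from 4 to 2 with log2(RPM + 1), 0 in replicates 1 to 3 alone and 2 to 5 with each library left out, 0 to 0 for cofactors. The median number of detected HOX genes in control libraries became 19 at 1 read, 11 at 5 reads and 11 at 1 RPM, and in cryptorchid libraries 20 in replicates 1 to 3 alone. Without each library it was 14 to 15 in control and 11.5 to 14.5 in cryptorchid libraries, and the HOX median difference -0.69 to -0.11, against -0.07 with no filter. Of single HOX genes, the sign turned for *Hoxb3* in replicates 4 and above alone (0.0241), *Hoxc5* in replicates 1 to 3 alone (0.78), *Hoxd8* in replicates 4 and above alone (0.59), *Hoxa4* without cryptorchid replicate 2 (-0.960 to 0.0721 over all libraries left out) and *Hoxb13* without control replicate 5 (-0.0966 to 1.15). Depth limits HOX genes near the floor, which stands for 0.90 to 7.58 reads.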
